A study of Mus musculus with 6 samples.

Results

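Cathepsins are the proteases of endosomes and lysosomes, and 10 of their genes were followed here, Ctsa, Ctsb, Ctsc, Ctsd, Ctse, Ctsh, Ctsk, Ctsl, Ctss and Ctsz. They were taken by symbol from a table of 30587 gene rows, and each matched 1 row. The libraries came from dendritic cells grown from bone marrow of C57BL/6 mice. WT cells (3 libraries) had the genotype Hif2afl/fl, so both groups carried floxed alleles of Epas1, which encodes HIF-2α. KO cells (3 libraries) had the genotype CD11c-Cre;Hif2afl/fl, in which Cre is made under the control of the CD11c promoter, so cells of the culture that do not use that promoter keep the gene. All 6 cultures received dimethyloxalylglycine (DMOG), which stabilises HIF α subunits, for 24 h and then the glycolipid α-GalCer for 4 h. The single contrast was therefore KO against WT, and a response to either agent was not analysed here. The labels give no mouse age, and they do not say whether libraries came from separate mice or cultures. The p-values thus measure only how these libraries vary, and that variation may be technical.

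Cathepsins fall into classes by the residue that cuts the peptide bond. Ctsb, Ctsc, Ctsh, Ctsk, Ctsl, Ctss and Ctsz encode cysteine proteases of the papain family, Ctsd and Ctse aspartic proteases, and Ctsa a serine carboxypeptidase. They are made as inactive precursors, are sorted to lysosomes largely by a mannose 6-phosphate tag, and become active at acid pH. In dendritic cells they break down engulfed protein, trim the invariant chain that blocks the groove of MHC class II molecules, and cut endosomal Toll-like receptors into their active form. Mice without cathepsin L have few natural killer T cells, the lymphocytes that recognise α-GalCer on CD1d.

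Total counts per library ran from 14668641 to 17884160, and 13249 rows had enough reads to be tested, among them all 10 cathepsins. Epas1 was lower in every KO library, at 22.2 ± 1.94 CPM (counts scaled to a common library size; SD, n = 3) in WT and 11.2 ± 1.55 CPM in KO (log2 fold change -0.98 ± 0.12 SE; edgeR adjusted p = 3.45e-05). Reads reached 25408 rows in WT 2, whereas the other libraries covered 18763 to 22275 rows. Of 8 dendritic cell genes tested, 3 were higher in KO and 1 lower by edgeR, beside 13.8% higher and 12% lower of all genes tested. The summed level of the dendritic cell genes overlapped (359 to 381 CPM in WT, 341 to 392 CPM in KO). Itgax, which encodes CD11c, averaged 205 ± 16.4 CPM in WT against 179 ± 32.4 CPM in KO (SD) and did not pass. Zbtb46 (from 30.4 to 43.1 CPM), Flt3 (from 63.6 to 74.8 CPM) and Xcr1 (from 0.747 to 1.96 CPM) were higher, Clec10a (from 7.85 to 5.47 CPM) was lower, and Cd209a had 3 to 9 reads per library. Macrophage genes were abundant in both genotypes. Their summed level over 10 genes was 3823 to 4042 CPM in WT and 4307 to 4726 CPM in KO, with 6 higher and 0 lower, among them C1qa, C1qb and C1qc (edgeR; 6 higher and 1 lower at an unadjusted p under 0.05). Neutrophil genes summed to 38.6 to 53.4 CPM in WT and 43.9 to 64.5 CPM in KO, and mast cell and basophil genes to 4.57 to 7.10 and 9.59 to 12.5 CPM. Genes of plasmacytoid dendritic cells summed to 20.4 to 22.4 and 27.3 to 33.4 CPM, nearly all from Tcf4. Lymphocyte genes stayed at 1.49 CPM or less in sum. The part of these marker levels in the results that follow was not tested, and in bulk RNA fewer cells of a type cannot be told apart from less RNA per cell.

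Individual cathepsin genes differed between the genotypes, some up and some down, while their summed level overlapped. Ctsl and Ctsc rose in KO, Ctsk, Ctsa and Ctsh fell, and Ctsb, Ctsd, Ctse, Ctss and Ctsz did not pass the test. Thus 2 of 10 were higher and 3 of 10 lower (edgeR quasi-likelihood test, Benjamini-Hochberg adjusted p under 0.05 over all rows tested). Among all genes tested, 25.8% passed, 13.8% higher and 12% lower. The share of cathepsins that passed in each direction lay above those shares, but with 10 genes the counts are small. The median log2 fold change of the 10 cathepsins was 0.03, against -0.01 for all genes tested. Libraries of the 2 genotypes did not overlap for 9 of the 10 cathepsins, 5 above and 4 below, where 40.4% of all genes tested did not overlap (20.5% above and 20% below). That share covers genes of every level, while all cathepsins but Ctse ranked within the first 791 genes per kilobase of exon in WT. No share was computed over genes of like level. Ctss and Ctsd did not overlap at log2 fold changes of only 0.08 and -0.10.

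**Figure D1:**
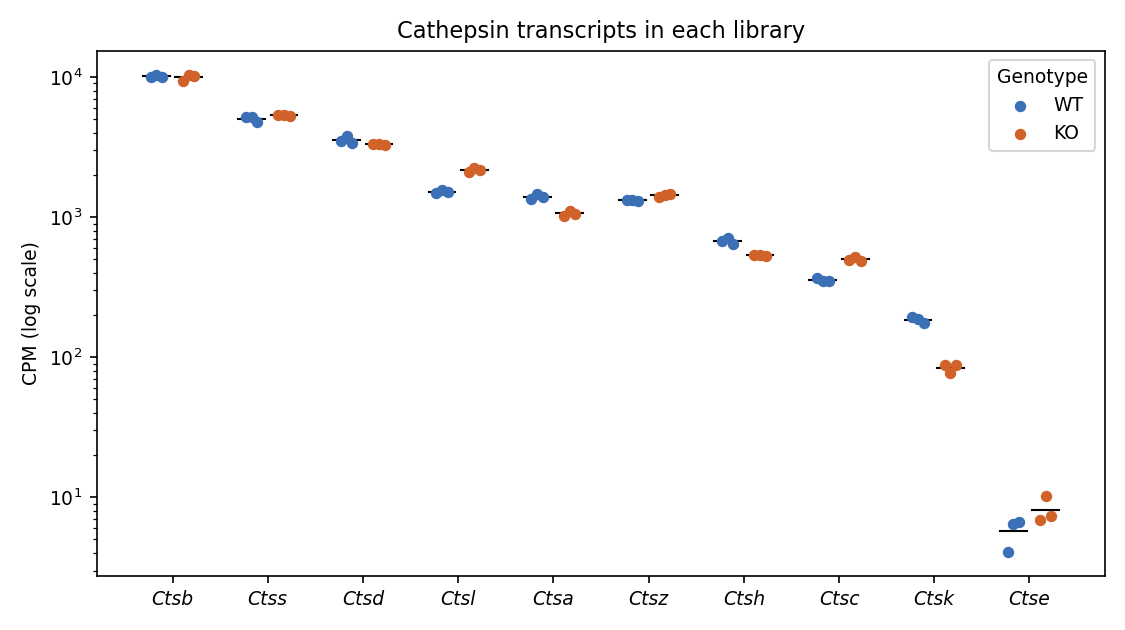
Normalised read counts (CPM, log axis) of the 10 cathepsin genes in each of 3 WT and 3 KO libraries, with a line at each mean. Ctsl and Ctsc lie higher in the KO libraries and Ctsk, Ctsa and Ctsh lower, while Ctsb overlaps between genotypes.

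Summed over the 10 genes, the level was 24105.5, 24983 and 23468 CPM in WT 1, 2 and 3 and 23587, 25034 and 24484 CPM in KO 1, 2 and 3. The groups overlapped, with means of 24186 ± 760.5 and 24368 ± 730.4 CPM (SD, n = 3 each). The exact two-sided permutation p was 0.7, and 0.7 adjusted over the 2 such tests reported. The same p was also computed for the class sums and the shares below, which are not reported as tests and were not part of the adjustment. The smallest p that 3 against 3 allows is 0.1. Cathepsins took 2.35% to 2.42% of all counts in WT and 2.41% to 2.51% in KO. The cysteine class summed to 19226 ± 503 CPM (SD) in WT against 19985 ± 674 CPM for KO, with overlap. The aspartic class, nearly all Ctsd, summed to 3563 ± 233 CPM in WT and 3321 ± 26.6 CPM in KO, with every KO library below every WT library.

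Ctsb (41.9% of cathepsin reads in WT), Ctss (20.8%) and Ctsd (14.7%) held most of that sum, and none of them passed. The sum therefore says little about the 5 genes that did. Within the sum the genes held different shares in the 2 genotypes. Ctsl reads went from 6.29% ± 0.137 of cathepsin reads in WT to 8.93% ± 0.0680 in KO (SD, n = 3), and Ctsc reads from 1.47% ± 0.0629 to 2.05% ± 0.0581. Ctsk went the other way, from 0.767% ± 0.0298 to 0.347% ± 0.0332, as did Ctsa, from 5.78% ± 0.199 to 4.36% ± 0.0449, and Ctsh, from 2.79% ± 0.0503 to 2.19% ± 0.0833. The shares of all 10 cathepsins, these 5 and the other 5, did not overlap between genotypes, with Ctsb and Ctsd lower in KO and Ctse, Ctss and Ctsz higher. A share needs no scaling between libraries, though shares of 1 total depend on each other. Ctsb overlapped in CPM although its share did not. No like count of shares was made over all genes, of which 40.4% did not overlap in CPM.

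**Figure D2:**
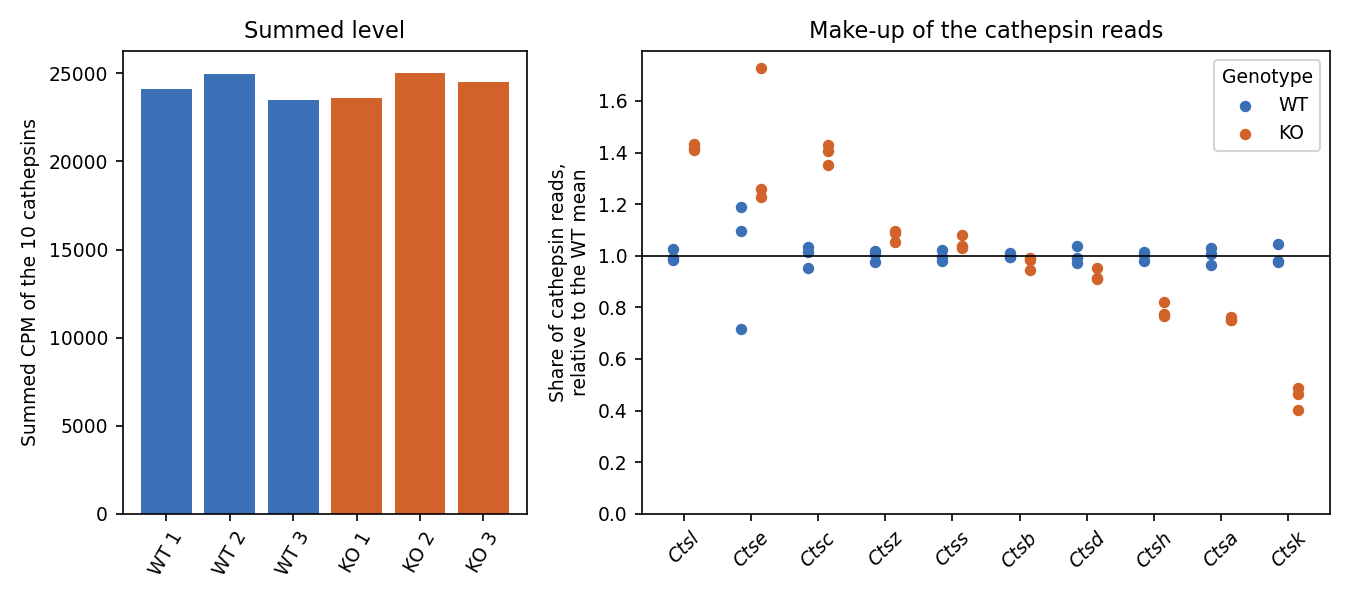
Left, summed CPM of the 10 cathepsins in each library (bars from 0). Right, the share of cathepsin reads that each gene held in each library, divided by the mean share in WT; the sums overlap between genotypes, while the shares of Ctsl and Ctsc sit above 1.3 in KO and that of Ctsk below 0.5.

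Ctsl encodes cathepsin L, an endopeptidase that can remove the invariant chain from class II molecules (chromosome 13, 64359337 to 64370890, minus strand, mm10). It had 1492, 1557 and 1513 CPM in WT and 2092, 2254 and 2184 CPM in KO. All KO libraries were far above all WT libraries. The log2 fold change was 0.52 ± 0.05 (SE), or 1.43-fold (edgeR adjusted p = 2.33e-06). Exons of Ctsl share 1742 bases with Gm47123 on the other strand and 395 bases with the pseudogene Gm49230 on its own strand, neither of which was analysed here, so reads of these loci may be mixed.

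Ctsc encodes cathepsin C, or dipeptidyl peptidase 1, which removes dipeptides from protein ends and activates the serine proteases of granules (chromosome 7, 88278085 to 88310888, plus strand). Its level was 366, 349 and 349 CPM in WT and 495, 517 and 486 CPM in KO. The WT libraries were close together and all below the KO libraries. It rose by a log2 fold change of 0.49 ± 0.06, or 1.41-fold (edgeR adjusted p = 5.33e-05). No annotated exon of another gene overlaps it.

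Ctsk encodes cathepsin K, the collagen-cutting protease best known from osteoclasts (chromosome 3, 95499256 to 95509362, plus strand). It had 193, 188 and 176 CPM in WT and 88.1, 77.5 and 87.4 CPM in KO. Of the 10 cathepsins it had the largest fold change, with a log2 value of -1.14 ± 0.07, or 2.20-fold lower (edgeR adjusted p = 4.61e-08). All 3 KO libraries had less than every WT library by a wide margin.

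Ctsa encodes cathepsin A, a carboxypeptidase that also protects the lysosomal enzymes Neu1 and Glb1 in a complex (chromosome 2, 164832873 to 164841032, plus strand). It had 1341, 1452 and 1398 CPM in WT and 1023, 1105 and 1061 CPM in KO, without overlap. Ctsa fell by a log2 fold change of -0.39 ± 0.05, 1.31-fold lower by edgeR (adjusted p = 0.000108). Ctsa shares 495 exon bases with Pltp and 324 with Neurl2, both on the other strand. Pltp rose (log2 fold change 0.46 ± 0.07), opposite to Ctsa, and Neurl2, at only 3.65 CPM in WT, fell (-0.75 ± 0.22). The GC and length offset named here and for other genes corrects each library for GC content and exon length. Of the partners in its complex, the β-galactosidase gene Glb1 fell by 0.73 on the log2 scale (± 0.06; edgeR adjusted p = 2.21e-06) and the sialidase gene Neu1 rose by 0.19 ± 0.06 (edgeR adjusted p = 0.031). The call of Neu1 was lost without WT 1, WT 2, WT 3, KO 2 or KO 3 (0.17 to 0.22 over the 6 fits without 1 library), with a block on replicate number (0.19) and under the GC and length offset (0.14). Glb1 shares 165 exon bases with Tmppe on the same strand.

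Ctsh encodes cathepsin H, chiefly an aminopeptidase (chromosome 9, 90054152 to 90076089, plus strand). Its level was 674, 707 and 641 CPM in WT and 539.5, 534 and 528 CPM in KO. The KO libraries lay within a narrow band below all WT libraries. It fell by a log2 fold change of -0.34 ± 0.06, that is 1.26-fold lower (edgeR adjusted p = 0.00093).

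**Figure D3:**
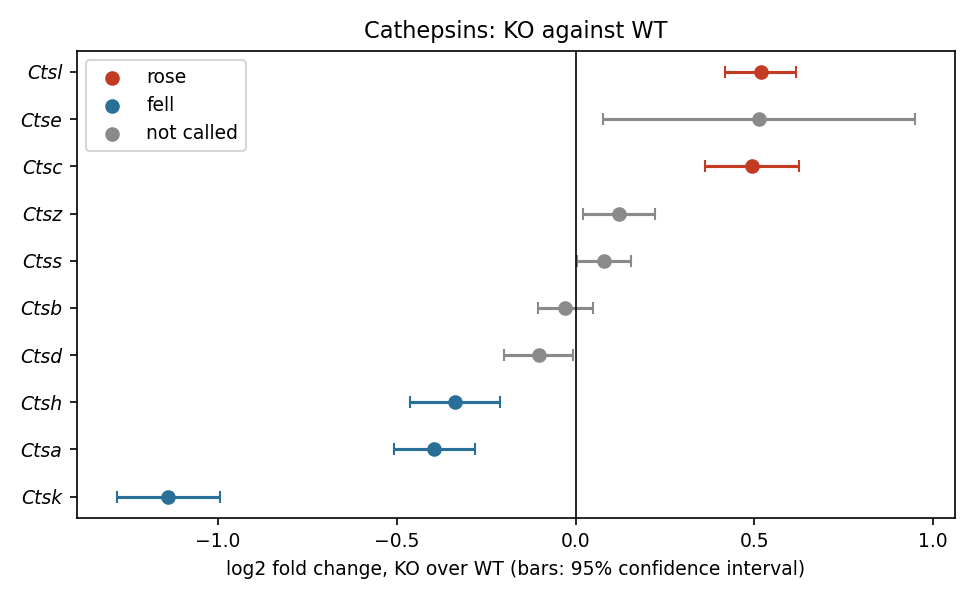
Log2 fold change of each cathepsin, KO over WT, with its 95% confidence interval from the edgeR fit (n = 3 libraries per genotype). Ctsl and Ctsc rose, Ctsh, Ctsa and Ctsk fell, and the remaining genes did not pass an adjusted p of 0.05.

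Ctss encodes cathepsin S, the main protease of the last step of invariant chain removal in dendritic cells (chromosome 3, 95526786 to 95556403, plus strand). It had 5142, 5188 and 4799 CPM in WT and 5311, 5383 and 5293 CPM in KO. Although no library overlapped, the log2 fold change of 0.08 ± 0.03 was small and did not pass (edgeR adjusted p = 0.115; 95% confidence interval 0.0040 to 0.15). It passed with scaling to library size only (0.11, edgeR adjusted p = 0.0159) and with the GC and length offset (0.17, edgeR adjusted p = 0.00233). Thus a rise of more than 0.15 on the log2 scale lay outside the interval of the fit, while the offset alone moved the estimate past that bound.

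Ctsl and Ctss can both act on the invariant chain, and their ratio within a library is free of scaling between libraries. There were 29.0, 30.0 and 31.5 Ctsl reads per 100 Ctss reads in WT 1, 2 and 3, against 39.4, 41.9 and 41.3 for KO 1, 2 and 3. The ratio was higher in each KO library than in any WT library, with a difference in means of 0.44 on the log2 scale. The exact two-sided permutation p was 0.1, the smallest possible, and 0.2 adjusted over the 2 such tests reported.

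Ctsz, for the carboxypeptidase cathepsin Z (chromosome 2, 174427493 to 174439039, minus strand), had 1321, 1324 and 1297 CPM in WT and 1394, 1433 and 1460.0 CPM in KO. The KO libraries were all higher, but the log2 fold change of 0.12 ± 0.05 did not pass (edgeR adjusted p = 0.0727; 95% confidence interval 0.021 to 0.22). It passed without KO 1 (0.14) and with scaling to library size only (0.15), which with Ctse or Ctss brought the cathepsins called higher to 4 in each of these fits.

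Ctsb, for the abundant endopeptidase and dipeptidyl carboxypeptidase cathepsin B (chromosome 14, 63122462 to 63145923, plus strand), had 10065, 10399.9 and 9934 CPM in WT and 9332, 10380.4 and 10085 CPM in KO. These values overlapped, and the log2 fold change was -0.03 ± 0.04 (edgeR adjusted p = 0.6; 95% confidence interval -0.11 to 0.048). Its sign varied between alternatives, from -0.06 with the GC and length offset to 0.03 with WT 2 and KO 1 both left out, and it was 0.0043 with scaling to library size only. Ctsb exons share 774 bases with Fdft1 on the other strand, which did not pass (-0.07 ± 0.06).

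Ctsd, for cathepsin D, the main aspartic protease of lysosomes (chromosome 7, 142375911 to 142388038, minus strand), had 3506, 3811 and 3354 CPM in WT and 3305, 3341 and 3293 CPM in KO. The KO libraries lay just under the lowest WT library, and the log2 fold change of -0.10 ± 0.04 did not pass (edgeR adjusted p = 0.113; 95% confidence interval -0.20 to -0.0060). It passed without WT 3 (-0.13) and with the GC and length offset (-0.15), and it was -0.05 without WT 2. Of Ctsd exon bases, 808 are shared on the same strand with Gm49369, which was not analysed here.

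Ctse, for the aspartic protease cathepsin E of endosomes (chromosome 1, 131638306 to 131675505, plus strand), was the scarcest of the 10, with 69, 100 and 97 reads in WT and 125, 173 and 126 reads in KO. That is 5.72 ± 1.42 CPM against 8.13 ± 1.84 CPM (SD), without overlap. The log2 fold change of 0.51 ± 0.20 was close to that of Ctsl, with a wider error, and did not pass (edgeR adjusted p = 0.0807; 95% confidence interval 0.075 to 0.95). It passed without KO 1 (0.63), with WT 2 and KO 1 both left out (0.73), without the low-count filter (0.53) and under a block on replicate number (0.51). Without WT 1 or KO 2 the value was 0.32 or 0.31.

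The 5 calls among the cathepsins held in all 15 alternatives run, in the same direction. Over these the log2 fold change ran from 0.49 to 0.56 for Ctsl, from 0.47 to 0.53 for Ctsc, from -1.17 to -1.08 for Ctsk, from -0.48 to -0.34 for Ctsa and from -0.36 to -0.30 for Ctsh. The highest adjusted p in any alternative was 0.000229 for Ctsl, 0.000785 for Ctsc, 3.67e-06 for Ctsk, 0.00331 for Ctsa and 0.0131 for Ctsh, the tool being edgeR, DESeq2 or limma according to the alternative.

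**Figure D4:**
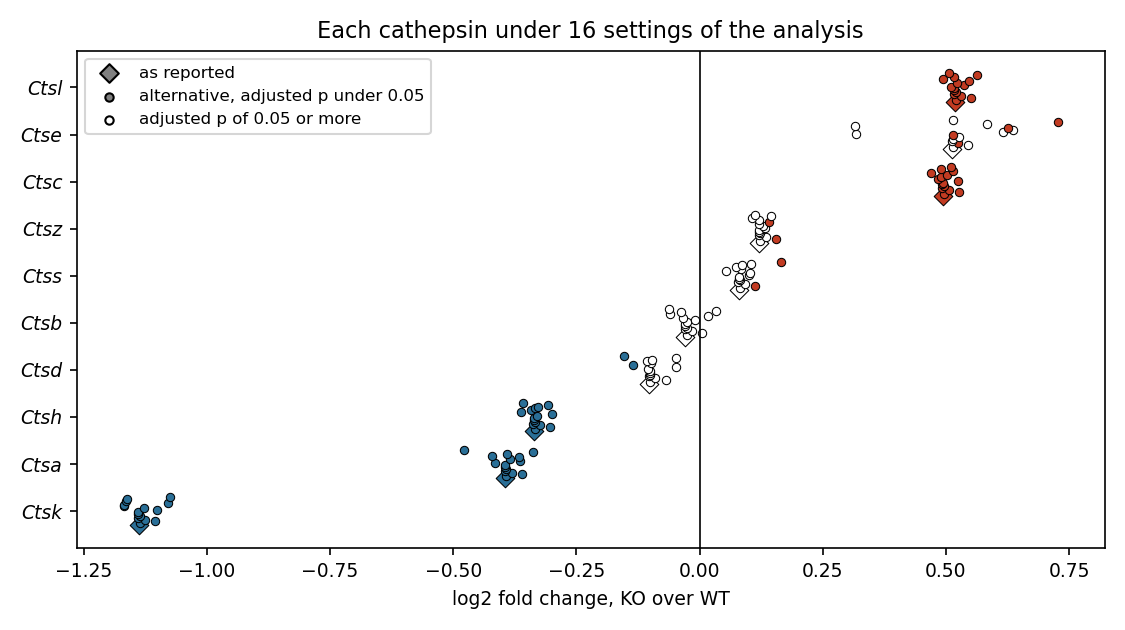
Log2 fold change (KO over WT) of each cathepsin as reported (diamond) and in 15 alternatives (dots), filled where the adjusted p was under 0.05. Ctsl, Ctsc, Ctsh, Ctsa and Ctsk are filled throughout, Ctsb is open throughout, and the others are filled in some alternatives.

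Ctsk and Ctss are neighbours on the plus strand of chromosome 3, with 17423 bases and no other annotated gene between them, yet Ctsk fell 2.20-fold while the value of Ctss was 0.08 on the log2 scale. Their upstream sequences are shown because of this contrast. RefSeq windows (GRCm38.p6) were found for 7 of the 10 cathepsins, and the 250 bases before each start were searched on both strands. Ctsa had 2 annotated starts. The motifs were CACGTG, the E-box at the heart of the lysosomal CLEAR element read by TFEB and its relatives; ACGTG and GCGTG, cores of the hypoxia response element, of which ACGTG lies within CACGTG, and the core of the interferon-stimulated response element, taken as GAAA, any 2 bases and GAAA. The first lies in 6.02% of all 32851 windows of this length, either hypoxia core in 38.6% and the last in 2.98%. Capitals mark the interferon core or, in the sites given next, CACGTG.
Ctsk, chr3:95498960-95499209, plus strand: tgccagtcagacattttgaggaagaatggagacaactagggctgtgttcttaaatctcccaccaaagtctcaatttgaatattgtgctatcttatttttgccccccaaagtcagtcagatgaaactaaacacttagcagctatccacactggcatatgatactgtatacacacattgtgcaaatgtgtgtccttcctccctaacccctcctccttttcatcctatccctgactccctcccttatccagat
Ctss, chr3:95526536-95526785, plus strand: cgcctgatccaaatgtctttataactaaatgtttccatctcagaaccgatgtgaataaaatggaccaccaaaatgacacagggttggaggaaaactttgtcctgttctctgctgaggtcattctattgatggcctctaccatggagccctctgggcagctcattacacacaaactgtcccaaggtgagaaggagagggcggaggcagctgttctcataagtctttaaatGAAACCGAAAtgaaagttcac
The Ctss window held the interferon core once, 21 to 12 bases before the start, and the Ctsk window held none of the 4 motifs. The Ctsz window held none either, and that of Ctsc had GCGTG alone. GCGTG also lay in both Ctsa windows, 148 to 144 bases before the first start and 78 to 74 before the second. The Ctsd window held it 160 to 156 bases before the start.

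The E-box CACGTG was found in the windows before RefSeq starts of Ctsl, which rose, Ctsa, which fell, and Ctsd, which did not pass. Those starts lie inside the GENCODE bounds given above, so 48 bases of the Ctsl window, 164 of the Ctsa window and 211 of the Ctsd window are exons of the same gene, and the Ctsl site, the Ctsa site and the second Ctsd site lie within the annotated gene. The sites are short enough to set side by side.
Ctsl, chr13:64370746-64370761, minus strand: gaagcCACGTGctgat
Ctsa, second start, chr2:164833756-164833771, plus strand: actgtCACGTGatgca
Ctsd, first site, chr7:142388062-142388077, minus strand: tccccCACGTGacctg
Ctsd, second site, chr7:142387915-142387930, minus strand: cgtctCACGTGacccg
Counted from the RefSeq start, the matched letters began 236 bases before it in Ctsl, 12 in Ctsa, and 245 and 98 in Ctsd. A match describes these letters only, and no binding was measured.

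Levels of different genes can be compared only per length. Per kilobase of annotated exon, Ctss was the highest cathepsin at 3714 ± 156 CPM per kilobase in WT, rank 9 among all genes tested. Next came Ctsb at 1675, Ctsd at 1513, Ctsz at 912, Ctsa at 296, Ctsl at 234, Ctsh at 149.8, Ctsk at 123, Ctsc at 61.1 and Ctse at 1.81 CPM per kilobase. No neighbours in that order overlapped in their 3 libraries, in WT or in KO. In KO the order changed at 2 places, with Ctsl (335) above Ctsa (225) and Ctsc (86.0) above Ctsk (55.8). The order rests on the lengths used. Per kilobase of coding sequence Ctsb led at 9964 CPM per kilobase in WT, ahead of Ctss at 4930. In both genotypes Ctsl (1518 in WT) was above Ctsa (947 in WT), and Ctsc (256 in WT) was above Ctsk (188 in WT). Annotated exons cover 6051 bases in Ctsb and 6489 in Ctsl, of which the coding lengths are 1017 and 1002.

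Over the 6 libraries, the genes whose centred log2 CPM lay closest to that of Ctsl, the cathepsin with the highest fold change among those that rose, were Plin2, Tmem106a and Unc93b1, out of 5343 genes whose mean log2 CPM reached 5. Their root-mean-square differences from Ctsl were 0.023, 0.025 and 0.027 on the log2 scale. Plin2 encodes a lipid droplet coat protein and Unc93b1 the chaperone of endosomal Toll-like receptors. Closest to Ctsk were Pdk1, for a kinase that restrains pyruvate dehydrogenase, the arginase gene Arg1 and the glycogen branching enzyme gene Gbe1, at 0.032, 0.040 and 0.052. Their log2 fold changes were -1.14 ± 0.06, -1.07 ± 0.07 and -1.07 ± 0.07. Since these genes were picked for likeness over the same libraries, fold changes near that of Ctsk follow from the choice.

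Of 4 other cathepsin genes, Ctsf and Ctso were tested. Ctsf, for a further papain-family protease, fell by a log2 fold change of -0.45 ± 0.15, from 7.82 to 5.72 CPM (edgeR adjusted p = 0.0382). Its call was lost without WT 1, WT 2, WT 3, KO 2 or KO 3 (-0.58 to -0.38 over the 6 fits without 1 library), under scaling to library size only (-0.41), without the low-count filter (-0.43) and by the DESeq2 Wald test (-0.45). Ctso was read at 31.9 ± 0.841 CPM in WT against 30.5 ± 2.52 CPM in KO (SD), with an edgeR adjusted p of 0.602. Neither was higher in KO at an unadjusted p under 0.05, by edgeR, and DESeq2 and limma-voom also called 0 higher. Ctsg, a neutrophil granule protease, and Ctsw, of killer lymphocytes, had at most 3 and 1 reads per library. Of the placental relatives of Ctsl on chromosome 13, none reached a test, and Cts6, Cts7, Ctsj and Ctsll3 had at most 4 reads, most of them in WT 2.

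Inhibitors of cathepsins mostly did not pass, beside 13.8% higher and 12% lower of all genes tested. Of 7 tested, 2 fell and 0 rose (edgeR; 1 was higher at an unadjusted p under 0.05, and DESeq2 and limma-voom also called 0 higher), with a median log2 fold change of -0.05. The 1 higher at an unadjusted p was Cst3, which had the most reads of the 7. Its mean level was 2037 CPM across WT libraries, while KO libraries averaged 2321 CPM, with overlap. The log2 fold change of Cst3 was 0.19 ± 0.07 (edgeR adjusted p = 0.061). Summed over the list, WT libraries ranged from 2587 to 3026 CPM and KO libraries from 2860 to 3381 CPM, so the sums overlapped. Cst6, for the secreted cystatin E/M, was covered by 40, 40 and 29 reads in WT, against 22, 15 and 17 for KO, and fell by a log2 fold change of -1.16 ± 0.27 (edgeR adjusted p = 0.00612). Serpinb1a, which inhibits neutrophil serine proteases such as cathepsin G, fell by -0.30 ± 0.10 although its libraries overlapped. That call was lost without WT 1, WT 2, KO 2 or KO 3 (-0.38 to -0.20 over the 6 fits without 1 library) and with scaling to library size only (-0.26). Without WT 1, 1 inhibitor fell, and without KO 2, 1 rose.

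Genes that sort enzymes to lysosomes leaned higher, beside 13.8% higher and 12% lower of all genes tested. Of 9 tested, 5 rose and 0 fell (edgeR; 1 was lower at an unadjusted p under 0.05, and DESeq2 and limma-voom called 0 lower), with a median log2 fold change of 0.21. Gga2 and Gga1 encode adaptors that load tagged enzymes into carriers at the Golgi. Gga2 went from a mean of 109 to 154 CPM (log2 fold change 0.50 ± 0.08, edgeR adjusted p = 0.000387), and Gga1 rose by 0.27 ± 0.07. Igf2r, the large mannose 6-phosphate receptor, rose by 0.35 ± 0.09, and Gnptab, of the enzyme that makes the tag, by 0.22 ± 0.07. The call of Igf2r was lost without WT 1, WT 2 or KO 3 (0.24 to 0.46 over the 6 fits without 1 library), and that of Gnptab without WT 1, WT 2, KO 2 or KO 3 (0.14 to 0.27) or with the GC and length offset (0.15). The number that rose was 2 without WT 1, WT 2 or KO 3 and 3 without KO 2. The fifth, Gga3, had an adjusted p close to the threshold (0.0456 by edgeR), and DESeq2 and limma-voom each called 4 sorting genes higher. Gga2 shares exon bases with a gene on the other strand.

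Of 9 other enzymes of lysosomal processing, 3 rose and 1 fell, with a median of 0.05. Among all genes tested 13.8% rose and 12% fell. Napsa, for the aspartic protease napsin A, rose by a log2 fold change of 0.23 ± 0.06. Sppl2a, which cuts the last stub of the invariant chain within the membrane, rose by 0.23 ± 0.06. Lgmn, for legumain, which cuts several cathepsins into 2 chains, rose from 826 ± 12.7 to 925 ± 23.9 CPM (SD; log2 fold change 0.16 ± 0.05, edgeR adjusted p = 0.0323). Cpq, for a carboxypeptidase, fell by -0.41 ± 0.12. Over the 6 fits without 1 library these ranged from 0.19 to 0.29 for Napsa (lost without KO 3), 0.18 to 0.26 for Sppl2a (lost without WT 2 or KO 2), 0.15 to 0.18 for Lgmn (lost without WT 1, WT 3, KO 2 or KO 3) and -0.51 to -0.33 for Cpq (lost without WT 1, WT 2 or KO 3, and with WT 2 and KO 1 both left out). With KO 2 or KO 3 left out, 1 gene of the list rose. Lgmn also lost its call without the low-count filter (0.18) and under a block on replicate number (0.16).

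Among proteins that cathepsins cut, 4 of 6 genes rose and 2 fell, beside 13.8% and 12% of all genes tested. Grn, for progranulin, rose from 1363 ± 29.9 to 1947 ± 137 CPM (SD; log2 fold change 0.51 ± 0.05, edgeR adjusted p = 1.35e-05). Tlr3, Tlr7 and Tlr9, for nucleic-acid receptors of endosomes, rose as well, Tlr3 from 5.28 to 13.5 CPM (1.35 ± 0.19). Cd74, for the invariant chain itself, fell from 2697 ± 85.1 to 2190 ± 82.0 CPM (-0.30 ± 0.04, edgeR adjusted p = 0.000215). Psap, for the precursor of the saposins that help to load glycolipids on CD1d, fell by -0.17 ± 0.03, and that call was lost without WT 2 (-0.15) and with WT 2 and KO 1 both left out (-0.12).

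Of 9 class II genes, 7 fell and 0 rose (edgeR; 8 were lower and 0 higher at an unadjusted p under 0.05, and DESeq2 and limma-voom called 0 higher), with a median of -0.45. H2-Ab1, for a chain of the class II molecule I-A, and H2-Aa, for its partner, fell by log2 fold changes of -0.49 ± 0.05 and -0.45 ± 0.05. H2-DMb2, of the peptide editor H2-DM, fell by -0.88 ± 0.08 and the transactivator gene Ciita by -0.86 ± 0.10. Among all genes tested 12% fell and 13.8% rose. Reads of similar H2 genes may be split between copies. Thus Ctsl rose while Cd74 and these class II genes fell in the same libraries, and Ctss did not pass in either direction.

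Of 6 regulators of lysosomal genes, 1 was higher and 1 lower by edgeR, with a median log2 fold change of -0.11. At an unadjusted p under 0.05 by edgeR, 1 was higher and 3 lower. Of all genes tested, 13.8% were higher and 12% lower by adjusted p. Mitf fell by a log2 fold change of -0.43 ± 0.07 (edgeR adjusted p = 0.000893) and its relative Tfe3 rose by 0.19 ± 0.06 (edgeR adjusted p = 0.0263). The call of Tfe3 was lost without WT 1, WT 2, KO 2 or KO 3 (0.17 to 0.22 over the 6 fits without 1 library) and with the GC and length offset (0.13). Tfeb, at 88.3 ± 3.30 CPM (SD) in WT against 79.4 ± 5.52 CPM for KO, did not pass (edgeR adjusted p = 0.0897). Tfec, of the same list, did not pass either (log2 fold change -0.23 ± 0.08, edgeR adjusted p = 0.055). For both genes every KO library lay below every WT library. Without WT 3, 2 regulators fell.

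**Figure D5:**
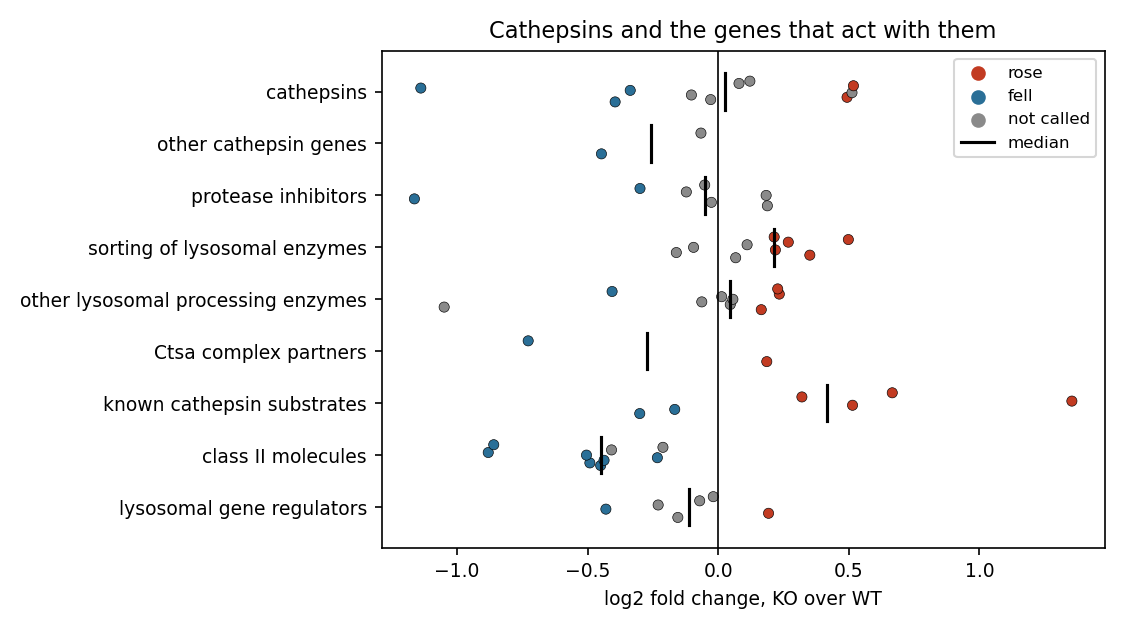
Log2 fold change (KO over WT) of each tested gene, as dots, for the cathepsins and for lists of genes that act with them, with a bar at each list's median. All tested class II genes lie left of 0 and the sorting genes that passed lie right of it, while the cathepsins spread to both sides.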

How the data were processed

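The data are counts of reads per gene symbol for 6 libraries, which the authors deposited unnormalized in 1 table. The submitters' processing notes name mm10 as the build and list HTSeq, SAMtools, TopHat2, HISAT, HISAT2 and DESeq2, without roles or versions. The labels state neither the annotation nor the strand setting nor the handling of multiply aligned reads.

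Where a symbol was repeated (23 symbols), the row with most reads kept it. Rows were filtered with filterByExpr (minimum count 10), which left out 17338 of 30587, and were scaled by TMM. Genotype was the single term of an edgeR 4.0.16 quasi-likelihood F test in R 4.3.3. Benjamini-Hochberg adjustment covered the 13249 rows, and a gene was called at an adjusted p under 0.05. The SE is the absolute log2 fold change over the square root of F. CPM are counts over TMM-scaled library size. Positions and lengths came from GENCODE M21 by symbol, with 98.5% of tested rows matched. Upstream sequences are RefSeq's (GRCm38.p6). The gene fits by edgeR, limma-voom and DESeq2 were tested on simulated counts, and the other settings and steps were not.

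The text names all 10 cathepsins and Epas1, up to 4 called genes of each list by lowest p, and the 3 genes most like 2 of the cathepsins. Any other gene was chosen after its values were seen. Alternatives were DESeq2 1.42.0 size factors and Wald test, library size only, other count filters, limma-voom (limma 3.58.1), the replicate number as a block and each library left out. A fit without WT 2 and KO 1, and offsets for GC content and exon length, were chosen after seeing the data. The cathepsins, lists and tests were chosen with earlier results of these data known. Lists are described by counts, with no set test.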

Additional observations from a re-analysis of the deposited data

How the results depend on the processing

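Of the cathepsins, the number called lower stayed at 3 or 4 in all 15 alternatives, while the number called higher was 4 with scaling to library size only and 2 to 4 when 1 library was left out. Leaving out 1 library gave 1182 to 1992 genes higher and 945 to 1622 lower over the whole table, the lowest without KO 3, and 1027 were lower without WT 1. The same fits gave 0 to 1 other cathepsin genes lower, 0 to 1 inhibitors higher and 1 to 3 lower, 2 to 5 sorting genes higher, 1 to 3 processing enzymes higher and 0 to 1 lower, 0 to 1 Ctsa partners higher, 1 to 2 substrates lower, and 0 to 1 regulators higher and 1 to 2 lower. With scaling to library size only, 0 other cathepsin genes were lower, and 1 inhibitor was higher and 1 lower. With no low-count filter, which moved the median gene to -0.12, 0 other cathepsin genes were lower and 1 inhibitor higher, and with the DESeq2 Wald test 0 other cathepsin genes were lower. With WT 2 and KO 1 both left out, 0 processing enzymes and 1 substrate were lower. With the GC and length offset 1 inhibitor was higher, 3 sorting genes were higher and 1 lower, and 0 Ctsa partners and 0 regulators were higher. The cause was not tested. Fewer libraries also mean less power. With the replicate number as a block, 1 inhibitor was higher and 0 Ctsa partners were higher, and 3 cathepsins were higher, since Ctse also passed, and 3 lower. The labels do not say that a number is shared between genotypes, so the numbers were not taken as pairs. Same-numbered libraries did not deviate together (correlations 0.015, -0.11 and 0.080), but so few libraries cannot settle whether they were paired. The summed cathepsin level moved between -0.0071 and 0.044 on the log2 scale over its alternatives, and the Ctsl to Ctss difference between 0.41 and 0.47. Among the cathepsins Ctse had the fewest reads, 69 to 173 per library, and the widest interval.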

Other observations

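Stfa3, for a stefin that inhibits cysteine cathepsins, was left out of the tests for low counts. Its reads numbered 13, 9 and 10 in the WT libraries against 1, 0 and 1 in the KO libraries. It was singled out after its values were seen, and stefin A genes are close copies of each other, so its reads are uncertain.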
